A study of Drosophila melanogaster with 14 samples.

Results

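In ovaries of adult Drosophila melanogaster, RNA that was being made was set against RNA that was present, in control genotypes and in 1-kb bins of the genome. The nascent RNA came from a nuclear run-on library of flies that carried only the germline driver, and the steady-state RNA from an rRNA-depleted total RNA library of flies that carried the driver plus a hairpin that targets white, an eye pigment gene. Bins were kept where the authors' RPKM (reads per kb of bin and per 1000000 library reads) averaged at least 1 over both libraries. This kept 46708 of 168744 bins of the dm3 genome, and these are called members below. There was 1 library a side, so no difference has a replicate check and no test was run.

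The series compared ovaries with and without Cutoff, which germline cells require to make piRNAs. Of its 14 samples, 2 form the comparison and 6 further libraries are read beside it. The run-on flies were of the w[1118] stock and carried the driver GAL4::VP16-nos.UTR at CG6325[MVD1] in a transgene marked with w[+mC]. The total RNA flies, called shWhite, carried the driver P{GAL4::VP16-nos.UTR}CG6325MVD1 over a TRiP.HMS00017 hairpin transgene at attP2. As labelled, the hairpin and the w[1118] stock therefore separate the sides along with the assay. The shCuff flies carried the driver over TRiP.GL00054 at attP2, a hairpin against Cutoff. The nos driver acts in the germline. All flies were 3 to 14 days old, and whole ovaries mix germline and somatic follicle cells, so fewer cells of a type and less RNA per cell cannot be told apart. The label of the total RNA library also calls it a control for chromatin libraries, a remark that the other shWhite total RNA library (replicate 1) lacks. These 2 shWhite libraries stood apart in mitochondrial and unplaced sequence, so results there are given with both.

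Nuclear run-on lets polymerases that are already engaged on DNA extend their transcript by a short stretch in isolated nuclei, here with bromo-UTP, and the labelled RNA is captured with an antibody. It therefore reads transcription along introns and exons alike. Total RNA reads what remains after splicing, processing and decay, so that introns and short-lived transcripts weigh little and stable messages weigh much. The bins carry no gene names and no strand. No annotation of the dm3 build was used here, so neither introns and exons nor the ovary's marker genes were read, and bins are given by position, with U and Uextra for unplaced sequence and names ending in Het for heterochromatic scaffolds.

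The run-on library held 2438630 reads and the total RNA library 5688671, so that 1 read was 0.410 and 0.176 RPM (reads per 1000000 library reads). Run-on reads were spread more widely. They lay in 42.25% of all bins against 27.0% for total RNA, and 3202 bins held 50% of the run-on reads where 816 bins held 50% of the total RNA reads. Over the members, log2(RPM + 1) of run-on and total RNA correlated across bins at a Pearson r of 0.640 and a Spearman rho of 0.588 (46708 bins, which share both libraries and are no replicates). For the control and shCuff run-on libraries Pearson's r was 0.760, and for the 2 shWhite total RNA libraries it was 0.849.

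**Figure D1:**
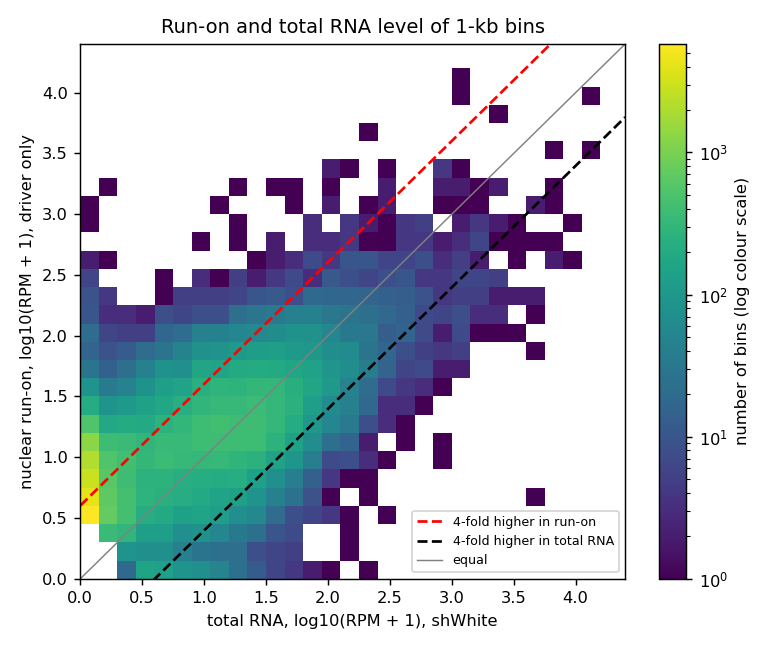
Number of 1-kb bins (colour, log scale) by total RNA level (x axis, log10 of RPM + 1, shWhite) and nuclear run-on level (y axis, the same scale, driver only) for the 46708 members. The fullest part is the left edge, where bins had run-on signal and little or no total RNA, and the 4-fold lines set off 15386 bins above and 2075 below.

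Bins were called with a ratio of (run-on RPM + 1) over (total RNA RPM + 1) of at least 4 in either direction. Transcription without matching stable RNA was common: 15386 members were at least 4-fold higher in run-on, which is 32.9% of all members. Stable RNA with little run-on was rare, with 2075 members at least 4-fold higher in total RNA, or 4.44%. These run-on-high bins held 33.5% of all run-on reads and 2.74% of the total RNA reads, whereas the RNA-high bins held 3.98% of the run-on reads and 32.8% of the total RNA reads.

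The split of the calls depends on the scaling. TMM factors (trimmed mean of M-values) scale on the bulk of the bins instead of on the totals. The median log2 ratio over the members was 1.56 with library totals and 0.82 with TMM factors, which shift every ratio by -1.11 before the pseudocount is added. With TMM factors 8521 bins were run-on-high and 5724 RNA-high, so that run-on-high bins made up 59.8% of the calls rather than 88.1%. Every direction below is relative to the library totals. Calls also rest on few reads: a bin with 0 total RNA reads needed 8 run-on reads to be called, and a bin with 0 run-on reads needed 18 total RNA reads. Near the upper threshold, 1440 called bins had a log2 ratio under 2.1 and 1929 uncalled members had 1.9 or more. The nearest members to the RNA-high threshold of -2 were 240 called bins above -2.1 and 256 uncalled bins below -1.9. The lowest mean RPKM kept was 1.03 and the highest left out was 0.996.

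The direction went with the level. Of the 12021 members with a mean RPKM from 2 to 5, 61.3% were run-on-high and 1.81% RNA-high. Of the 1158 members with a mean of 100 or more, 12.0% were run-on-high and 22.9% RNA-high, and their median log2 ratio was -0.69. Weakly covered members, with a mean from 1 to 2, were run-on-high in 15.2% of cases. The call rule itself limits this share. A bin with 0 total RNA reads could pass the filter with 5 run-on reads but needed 8 to be called. The median log2 ratio was 1.61 in these members and 2.33 in those from 2 to 5.

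A median run-on-high bin held 7.79 RPM in run-on and 0.176 RPM in total RNA, which is 19 reads against 1. A median RNA-high bin held 4.51 and 36.6 RPM, or 11 reads against 208. The upper quartile of run-on-high bins reached 15.6 RPM in run-on and 0.703 RPM in total RNA.

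Of all members, 11074 (23.7%) had 0 total RNA reads, which allows up to 3 reads or 0.527 RPM, and 6975 of these were run-on-high. Intervals and such limits cover counting error only, since reads were counted without molecular identifiers. The opposite case, 0 run-on reads with enough total RNA to pass the filter, was met in 317 members (0.679%), which allows up to 3 reads or 1.23 RPM, and 208 of them were RNA-high. A bin with 0 on one side passed the filter only through the other, with at least 5 run-on or 12 total RNA reads. Without the filter the numbers were 31042 and 5277, and with up to 3 reads in place of 0 they were 18712 and 1427.

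The first set was narrowed with all 6 RNA libraries. In 5738 of the 11074 bins (51.8%) no total or poly(A) RNA library of shWhite or shCuff ovaries held a read. Of these, 1781 bins had at least 10 reads in both run-on libraries, 1020 of them (57.3%) inside the long stretches described further on. All 1781 were run-on-high, and of all run-on-high bins 38.1% lay in such stretches. By arm, the 1781 bins were 350 on X, 317 on 2L, 291 on 2R, 324 on 3L, 423 on 3R and 4 on chromosome 4. As shares of the members these are 3.43% to 4.25% on X and the long arms and 0.588% on chromosome 4. Uextra stood above them with 26 of 201 members, or 12.9%.

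These bins, like all bins with 0 reads named here, were chosen after their values were seen. The highest of them was on 3R from 3965001 to 3966000, with 615 run-on reads in the control and 656 in shCuff, and 0 reads in each of the 6 RNA libraries. Its neighbours held 111 and 424 run-on reads and 0 total RNA reads. A bin of Uextra from 21297001 to 21298000 had 578 and 816 run-on reads between neighbours without any. On X, the bin from 13997001 to 13998000 had 403 and 754 run-on reads, with 29 and 60 control run-on reads in its neighbours. Reads in both run-on libraries were part of how these bins were chosen.

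Without the demand on the other libraries, the highest run-on level beside 0 total RNA reads was on 2R from 15613001 to 15614000, at 3263 reads or 1338 RPM. This was 2537-fold above the level of 3 total RNA reads, and the lower limit of the exact 95% interval of the ratio was 2062. The same bin held 5923 reads in shCuff run-on, 0 in the shCuff total RNA library of the same set, and 1 poly(A) read in each genotype. The next was on 3L from 8053001 to 8054000, with 1905 run-on reads, for which the lower limit of the ratio was 1203.5, and it held 2304 reads in shCuff run-on. Its neighbours held 97 and 6 run-on reads, so this signal stood in a single bin. On 2R, the bins from 2053001 and from 2078001 had 924 and 857 run-on reads, again with 0 total RNA reads in both libraries of the set. On X from 13909001 the count was 815, and on 3R from 16717001 and 18223001 it was 671 and 640, with neighbours on one side at 3 and 20 reads.

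By sequence, the order of the shares depended on the total RNA library. With replicate 2, run-on-high bins were most frequent in the mitochondrial genome, in heterochromatic scaffolds and in unplaced sequence. They made up 68.75% of 16 members in the mitochondrial genome, 45.5% of 1325 in the heterochromatic scaffolds and 44.4% of 405 in unplaced sequence, against 32.5% of 44962 on the major arms. RNA-high bins went the other way, with 0% in the mitochondrial genome, 1.81% in the heterochromatic scaffolds, 0.741% in unplaced sequence and 4.56% on the major arms. With replicate 1 as the total RNA library and the same filter, run-on-high bins were 4 of 16 members in the mitochondrial genome, 47.6% of 1355 in the heterochromatic scaffolds, 34.1% of 466 in unplaced sequence and 47.3% of 44231 on the major arms, and RNA-high bins were 4 of 16, 0.664%, 8.37% and 3.73%. The higher shares in mitochondrial and unplaced sequence were thus not seen with replicate 1. With it, the run-on-high share of the heterochromatic scaffolds differed little from that of the arms, but their RNA-high share stayed lower. Their summed log2 ratio with replicate 1 was 1.99, against 0.068 on the major arms. With TMM factors and replicate 2 the run-on-high shares were 68.75%, 25.9%, 29.9% and 17.9%, lowest on the major arms. Levels moved with it: members of the heterochromatic scaffolds had a median of 4.10 RPM in run-on against 7.38 RPM on the major arms, and 48.5% of them had 0 total RNA reads against 22.6%. The part of these levels in the difference was not tested.

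**Figure D2:**
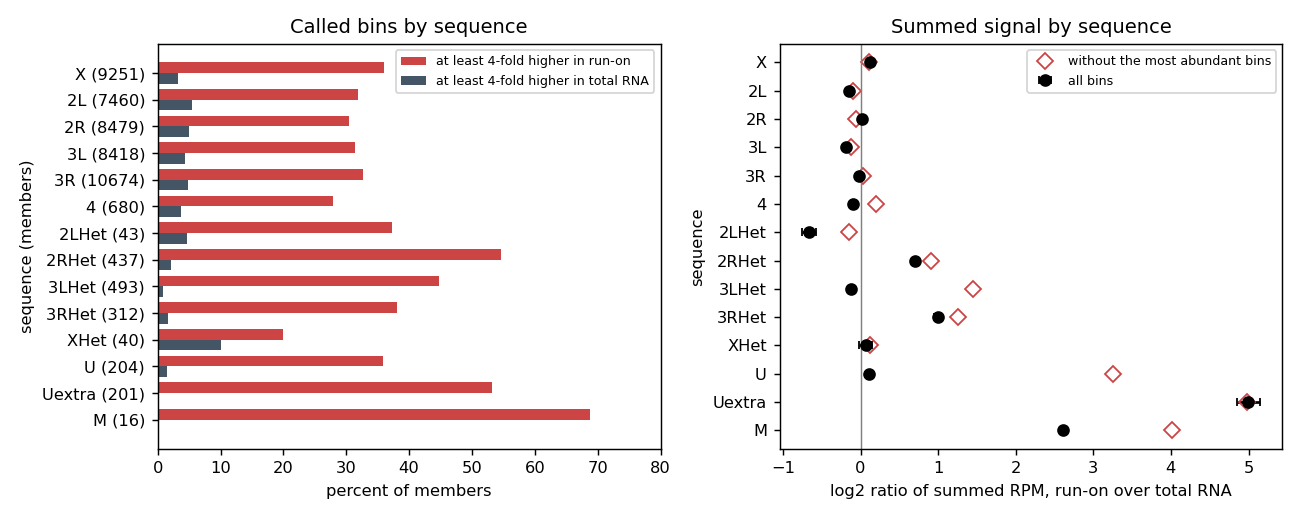
Left, percent of members called in each direction on each sequence, with the number of members in brackets. Right, log2 ratio of summed RPM, run-on over total RNA, with 95% exact intervals for counting error, over all bins (filled) and without the bin of most reads in each library (open). X and the long arms lie near 0, whereas Uextra at 32.0-fold and the mitochondrial genome at 6.08-fold lie far to the right with this total RNA library.

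Among the arms, X stood highest with 35.9% of 9251 members run-on-high and 3.25% RNA-high. The 4 long autosomal arms had 30.4% (2R) to 32.7% (3R) run-on-high and 4.395% (3L) to 5.42% (2L) RNA-high. Chromosome 4, a small and largely heterochromatic chromosome that nonetheless carries active genes, had the largest share of its bins among the members, 50.3%, and 27.9% of these were run-on-high. Ratios of sums and of single bins are ratios of RPM without a pseudocount, with 95% exact intervals for counting error in brackets. Summed over all bins, the ratio of run-on to total RNA was 1.08 (1.08 to 1.09) on X, 1.01 on 2R, 0.983 on 3R, 0.9001 on 2L, 0.880 on 3L and 0.936 (0.924 to 0.949) on chromosome 4. With shWhite total RNA replicate 1 the directions turned on X, 2L, 3L, 3R and chromosome 4, with log2 ratios of -0.056, 0.061, 0.092, 0.037 and 1.09. Without the bin of most reads in each library the ratio was 0.962 on 2R, 1.02 on 3R and 1.14 on chromosome 4, on the other side of 1, and on chromosome 4 a single bin held 17.0% of the total RNA reads.

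The heterochromatic scaffolds differed from each other. On 2RHet, 54.7% of 437 members were run-on-high, 44.8% of 493 on 3LHet, 38.1% of 312 on 3RHet, 37.2% of 43 on 2LHet and 8 of 40 on XHet. The summed ratio was 1.999 (1.93 to 2.07) for 3RHet, 1.63 (1.60 to 1.67) for 2RHet and 0.632 (0.595 to 0.672) for 2LHet. For 3LHet it was 0.918 (0.898 to 0.940), but a single bin from 2398001 to 2399000 held 73.2% of its total RNA reads, 19268 against 2111 in run-on, and without it the ratio was 2.73 (2.64 to 2.82). On 2LHet 1 bin, from 168001 to 169000, carried 32.9% of the total RNA reads. With replicate 1 the log2 ratio was 0.75 for 2LHet, 1.53 for 3LHet, 2.26 for 3RHet and 2.86 for 2RHet. With TMM factors it was -0.11 for 3RHet and -0.40 for 2RHet, below 0. YHet, from the Y chromosome that females lack, had 0 run-on reads, 1 total RNA read and no member.

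Unplaced sequence showed the same dependence on single bins. In U the summed ratio was 1.08 (1.06 to 1.09), but the bin from 5301001 to 5302000 held 85893 of 89474 total RNA reads (96.0%) and 26549 of 41245 run-on reads. Without it U had 6026 RPM in run-on and 629.5 RPM in total RNA, a ratio of 9.57 (9.23 to 9.93). Uextra had 5935 run-on reads and only 433 total RNA reads, a ratio of 32.0 (29.0 to 35.3) that was 31.4 without its leading bins. Its level was 2434 RPM in run-on and 76.1 RPM in total RNA, but 1274 RPM in shWhite total RNA replicate 1, so the size of the ratio rests on replicate 2. In U the level of replicate 1 was 62358 RPM, above the 16913 RPM of run-on, and the direction turned, at a log2 ratio of -1.88. Reads of repeated sequence were placed in a way that the labels do not state.

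The mitochondrial genome, which is transcribed by its own polymerase inside the organelle, had 20760 RPM in run-on and 3415 RPM in total RNA, a ratio of 6.08 (5.98 to 6.18). Of its 16 members 11 were run-on-high and none was RNA-high. The bin from 1001 to 2000 held more reads than any other of this genome, 17759 run-on and 14673 total RNA reads, and without it the ratio was 16.1 (15.6 to 16.6). The bins from 2001, 12001 and 5001 had 12938, 5314 and 4962 run-on reads against 1186, 518 and 672 total RNA reads. The excess rests on the total RNA library used. In shWhite total RNA replicate 1 the mitochondrial genome had 30092 RPM and in shWhite poly(A) RNA 34340 RPM, both above run-on, and the log2 ratio turned from 2.60 to -0.54. The bin from 5001 alone had 118.1 RPM in replicate 2 and 5008 RPM in replicate 1. The bins of U from 5291001 and 5300001 behaved likewise, with 39.9 and 20.9 RPM in replicate 2 against 1391 and 1214 RPM in replicate 1. In the knockdown pair of the same library set, mitochondrial levels were 28615 RPM in run-on and 1088 RPM in total RNA.

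On the major arms the highest run-on-high bin was the top bin of the run-on library. It lies on 2R from 19727001 to 19728000, with 34511 reads (14152 RPM) against 6743 total RNA reads (1185 RPM), a ratio of 11.9 (11.6 to 12.3). Its neighbours held 0 and 9 run-on reads. In shWhite ovaries it was at 959.9 RPM in total RNA replicate 1 and at 5.98 RPM in poly(A) RNA. The poly(A) level was thus far below the total RNA level. A bin on X from 17038001 to 17039000 was likewise low in poly(A) RNA, with 23423 run-on and 5822 total RNA reads, a ratio of 9.39 (9.12 to 9.66), and 496.5 RPM in total RNA replicate 1 against 22.9 RPM in poly(A) RNA. Both were also high in shCuff run-on, at 29672 and 16675 RPM.

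The next run-on-high bins were as high in poly(A) RNA as in total RNA of replicate 1, or nearly so. On 2R from 18495001 to 18496000 there were 6146 run-on and 1769 total RNA reads, a ratio of 8.10 (7.69 to 8.55), and 584.1 RPM in poly(A) RNA against 473.2 RPM in total RNA replicate 1. On X from 7766001 to 7767000 there were 4930 and 970 reads, a ratio of 11.9 (11.1 to 12.7), with 96.7 RPM in poly(A) RNA against 99.2 RPM. On X from 14093001 to 14094000 there were 4301 and 628 reads, a ratio of 16.0 (14.7 to 17.4), with 352.8 RPM in poly(A) RNA against 394.3 RPM. Against replicate 1 the log2 ratio of this last bin was 2.16 in place of 3.99.

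Bins rich in stable RNA were led by strongly expressed sites. On 3L from 8721001 to 8722000 total RNA had 50113 reads (8809 RPM) and run-on 2030 reads (832.4 RPM), so total RNA was 10.6-fold (10.1 to 11.1) higher. The poly(A) library had 4005 RPM there, and the following bin was RNA-rich as well, with 15139 total RNA reads against 798. On 2L from 22247001 to 22248000 total RNA was 18.5-fold (17.4 to 19.7) higher, with 45538 reads against 1054, and its neighbours held at most 30 reads in either library. On X from 8373001 to 8374000 it was 18.0-fold (16.9 to 19.1) higher, with 43422 reads against 1036, and on X from 5206001 it was 7.22-fold (6.93 to 7.52) higher. In these 4 bins the direction was the same in the knockdown pair, at log2 ratios of -3.97, -4.31, -4.56 and -3.45, and poly(A) RNA was 0.703-fold to 1.09-fold the level of total RNA replicate 1.

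The last of the 5 highest differed. On X from 5418001 to 5419000 total RNA had 40025 reads against 1619 in run-on, 10.6-fold (10.1 to 11.1) higher, in a bin whose neighbours had 0 total RNA reads. Poly(A) RNA held 47 reads (5.62 RPM) there against 956.9 RPM in total RNA replicate 1. The total RNA level was 7.35-fold higher in replicate 2 than in replicate 1, and in the knockdown pair the log2 ratio was 0.62, on the run-on side.

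Outside the arms the RNA-high bins were few and depended on the library. The leading one, on 2RHet from 471001 to 472000, had 2766 total RNA reads against 61 run-on reads, or 19.4-fold (15.1 to 25.5) higher. It was 60.5-fold higher in replicate 2 than in replicate 1 of shWhite total RNA. On 2RHet from 2902001 and on 2LHet from 168001 the replicates differed by 48.8-fold and 10.8-fold. For all 3 the direction turned with replicate 1, at log2 ratios of 1.52, 1.37 and 0.68. It was kept on 2RHet from 392001 at -1.11 and on 3LHet from 606001 at -3.04. Over all RNA-high bins, replicate 1 was lower by a median of -1.32 on the log2 scale, and 789 of 2075 (38.02%) were at least 4-fold lower there. With replicate 1 in place of replicate 2, against the same run-on library, 785 (37.8%) of the RNA-high bins and 14063 (91.4%) of the run-on-high bins still passed 4-fold. For comparison, of the 44231 members on the major arms with replicate 1, 47.3% were run-on-high and 3.73% RNA-high. Of the run-on-high bins, 8992 (58.4%) had 0 reads in replicate 1, against 36.8% of all members, and 2700 (17.5%) had more than 3.

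Of members with 0 run-on reads, the most abundant in total RNA was on 2L from 19810001 to 19811000, with 1252 reads, 178.9-fold above the level of 3 run-on reads, and the lower limit of the exact 95% interval was 145.3-fold. In the knockdown pair this bin had 38 run-on and 35 total RNA reads, on the run-on side. On 3R from 9536001 to 9537000 there were 449 total RNA reads and 0 run-on reads, and the knockdown pair had 313 and 0. This bin had 71.8 RPM in total RNA replicate 1 and 61.9 RPM in poly(A) RNA, which makes it the one among the 8 most abundant with 0 reads in both run-on libraries. Of all 317 members with 0 control run-on reads, 105 (33.1%) had 0 reads in shCuff run-on too, against 8.77% of all members. At most 3 reads were held by 173 (54.6%) of the 317.

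Run-on-high bins formed longer blocks than RNA-high bins. Block length also depends on how many bins were called, 15386 against 2075, and was not adjusted for it. Where the next bin of a run-on-high bin was a member, it was run-on-high in 61.1% of 12189 cases, against 32.9% of all members. For RNA-high bins the next bin was RNA-high in 25.03% of 1774 cases, against 4.44%. Relative to the share of all members, this rise was larger than that of the run-on-high bins. Called bins that followed each other with at most 2 other bins between were joined, which gave 4643 run-on-high stretches, 2293 of them of 1 bin, and 304 with 10 or more called bins that held 38.1% of all run-on-high bins. Of the latter, 37 had 30 or more. The 304 lay on X (72), 3R (73), 2L (56), 3L (50), 2R (43), 2RHet (4), chromosome 4 (2), 3LHet (2), 3RHet (1) and the mitochondrial genome (1). The 2075 RNA-high bins gave 1432 stretches, of which 981 were single bins and the longest had 6.

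The longest block lay on X from 9224001 to 9394000 and held 150 called bins over 170 kb. Run-on had 7196 reads in it, present in 170 of 170 bins, and total RNA 1160 reads, present in 61, a ratio of 14.5 (13.6 to 15.4). In RPM this was 2951 against 203.9, and it was 191.2 RPM in total RNA replicate 1, 86.7 RPM in poly(A) RNA, and 3125 RPM (run-on) and 403.0 RPM (total RNA) in the knockdown pair. The next was on 3R from 4919001 to 5043000, with 100 called bins, 2329 run-on reads in all 124 bins and 114 total RNA reads, a ratio of 47.7 (39.5 to 58.0). After it came 3R from 5701001 to 5812000, with 98 called bins, 4482 run-on and 609 total RNA reads and a ratio of 17.2 (15.8 to 18.7). With replicate 1 the log2 ratios of these 3 blocks were 3.95, 6.84 and 7.07 in place of 3.86, 5.57 and 4.10, and the last had 13.7 RPM in replicate 1 against 107.1 RPM in replicate 2. Run-on had reads in every bin of these 3 blocks, whereas total RNA had reads in 61, 52 and 60 of 170, 124 and 111 bins.

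**Figure D3:**
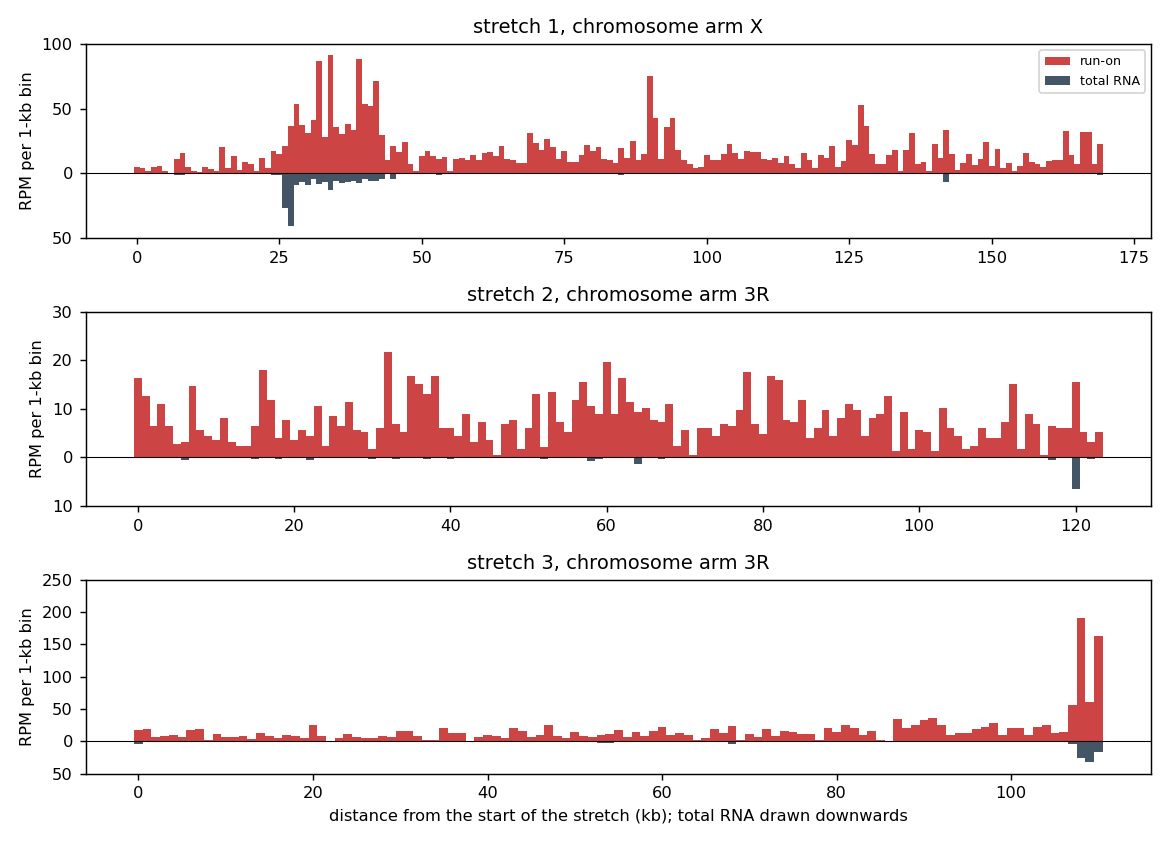
RPM per 1-kb bin along the 3 longest run-on-high stretches, with run-on drawn upwards and total RNA downwards on the same scale, against distance from the start of the stretch in kb. Run-on covers 170, 124 and 111 kb with reads in every bin, whereas total RNA has reads in 61, 52 and 60 bins.

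Of the 10 longest blocks, the ratio was highest on 2R from 15420001 to 15488000. There 1816 run-on reads covered all 68 bins and total RNA had 39 reads in 14 bins, a ratio of 108.6 (79.1 to 153.3), with 6 reads in total RNA replicate 1 and 1 in poly(A) RNA. On X from 19255001 to 19314000 the ratio was 63.4 (44.4 to 94.0), with 843 run-on and 31 total RNA reads. On 3L from 4710001 to 4800000 it was 52.0 (40.6 to 67.7) and on 3L from 42001 to 91000 it was 50.05 (39.8 to 63.7). The remaining 3 of the 10 longest, on X from 10426001 and from 12580001 and on 3L from 17554001, had ratios of 30.7, 14.3 and 40.2. All 10 were higher in run-on in the knockdown pair as well, by 3.73-fold to 38.9-fold. None held an RNA-high bin, but stretches were built from run-on-high bins with few others between, so this absence was largely fixed by the rule.

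The longest RNA-high stretches were short. On 2R from 5470001 to 5480000, 10 kb held 6 called bins, with 9594 total RNA reads against 728 run-on reads, 5.65-fold (5.24 to 6.10) higher in total RNA. On 3R from 25864001 to 25872000, 8 kb held 5 called bins with 11557 reads against 426, 11.6-fold (10.6 to 12.8) higher. Those on 3L from 12739001, on X from 17522001 and on 3R from 1613001 were 5.45-fold, 5.08-fold and 4.72-fold higher. For 3L from 12739001 the level was 292.5 RPM in replicate 2 and 59.6 RPM in replicate 1.

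The surroundings of the called bins differed in the same way. At 10 kb from a run-on-high bin the median run-on level was still 3.69 RPM on either side, and the median total RNA level was 0.176 RPM at each distance from 0 to 10 kb. Around RNA-high bins total RNA fell from a median of 36.6 RPM to 17.6 and 17.4 RPM in the adjacent bins and to 0.352 RPM at 10 kb. Run-on was 8.20 RPM in both adjacent bins, above the 4.51 RPM of the RNA-high bin itself, whose low run-on level is part of how it was chosen. At 10 kb from an RNA-high bin run-on had fallen to a median of 2.46 RPM. Uncalled members had the same median run-on level at 10 kb, 2.46 RPM, and a median total RNA level of 0.176 RPM there. These low levels far from a bin are thus not particular to the called classes, and 0.176 RPM is 1 read.

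**Figure D4:**
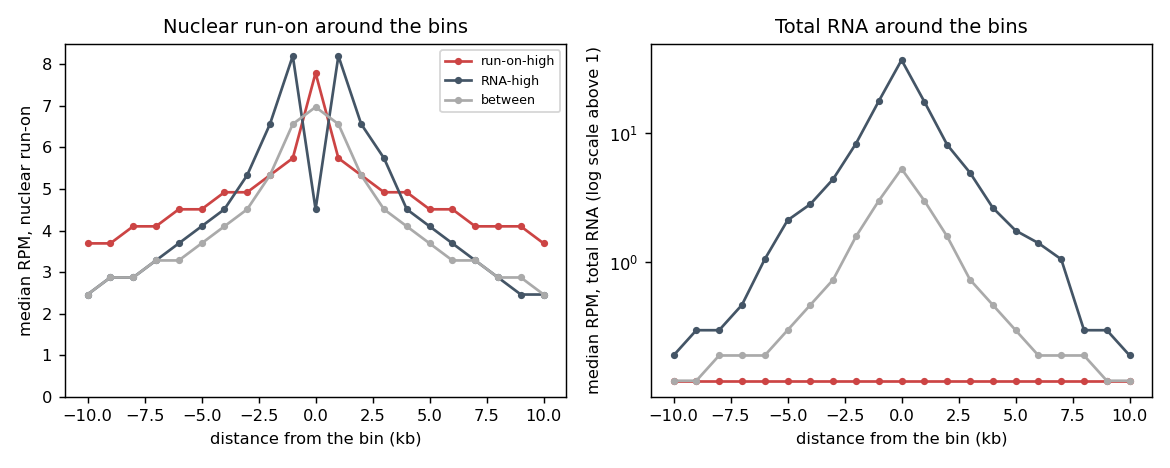
Median RPM of run-on (left, linear axis from 0) and of total RNA (right, log scale above 1) in bins at distances of -10 to 10 kb from run-on-high, RNA-high and other members. The run-on level at 0 kb dips to 4.51 RPM for RNA-high bins and adjacent bins reach 8.20 RPM, while total RNA around run-on-high bins stays at 0.176 RPM.

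Along the arms, the share of run-on-high bins was read in 1-Mb windows from the proximal end, the one nearest the centromere. The proximal window had 48.4% on 3L, 42.7% on 2R, 40.6% on X, 39.7% on 2L and 33.2% on 3R. The other windows of the same arms ranged from 18.4% to 61.6% on 3L, from 18.6% to 46.5% on 2R, from 18.3% to 51.1% on X, from 16.2% to 48.6% on 2L and from 12.9% to 46.5% on 3R. In each arm the proximal window exceeded the median of the others, which was 29.4%, 26.95%, 37.0%, 29.5% and 32.1% in that order, and in each the range of the others enclosed it. The highest window, on 3L from 4544001 to 5544000, contains the 90-kb block named above. The RNA-high share peaked on 2L from 10012001 to 11012000 at 14.8% of 427 members, where the run-on-high share was the lowest of that arm.

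**Figure D5:**
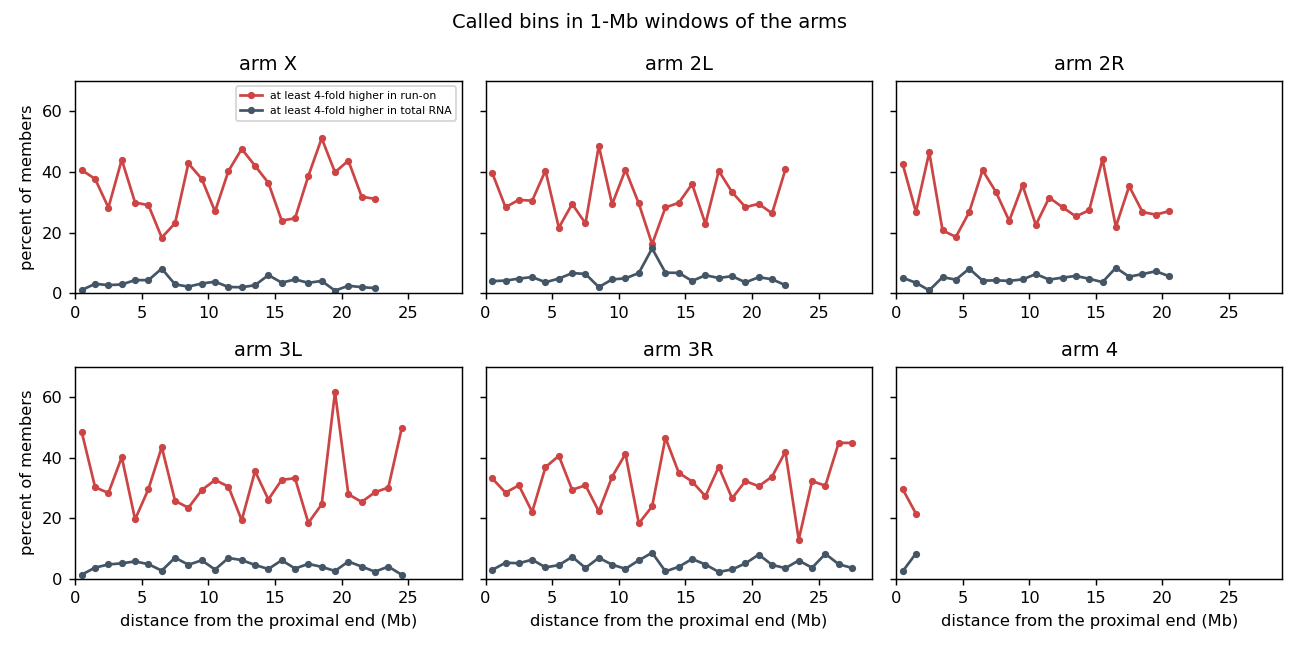
Percent of members called in each direction in 1-Mb windows of the 6 arms, by distance of the window's centre from the proximal end in Mb. Values scatter between 12.9% and 61.6% for run-on-high bins on the long arms, and the proximal windows lie within that range.

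At piRNA clusters, whose long precursor transcripts are cut into the small RNAs that silence transposons, summed run-on exceeded total RNA with library totals. The dm3 positions, rounded to kb, come from background knowledge. The dual-strand germline cluster 42AB, on 2R from 2144001 to 2387000, had 2648 run-on and 1039 total RNA reads, or 1086 and 182.6 RPM, a ratio of 5.95 (5.53 to 6.39). Of its 104 members 45 (43.3%) were run-on-high, against 32.9% of all members, and none was RNA-high, against 4.44% of all members. With replicate 1, at 437.5 RPM, the ratio was 2.48. In shCuff ovaries the levels were 293.8 RPM in run-on and 34.7 RPM in total RNA replicate 2, below the controls in both. The cluster on chromosome 4 went the other way, at 65.7 against 45.5 RPM in run-on and 30.4 against 8.61 RPM in total RNA. The remaining clusters below, uni-strand ones included, were lower in shCuff in both, 20A at 47.4 against 181.8 RPM in total RNA.

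In the other dual-strand clusters the summed ratio was above 1 as well, but the share of run-on-high members was close to the 32.9% of all members. 38C_b on 2L from 20148001 to 20228000 had 380 against 171 reads, a ratio of 5.18 (4.32 to 6.25), with 7 of 24 members (29.2%) run-on-high. The cluster on chromosome 4 from 1258001 to 1349000 had 111 against 49 reads, a ratio of 5.28 (3.74 to 7.56), with 3 of 10. The cluster at 80F on 3L from 23273001 to 23315000 had 524 against 586 reads, a ratio of 2.09 (1.85 to 2.35), with 11 of 36 (30.6%). In this last one a single bin held 348 of the total RNA reads, and without it the ratio was 4.59. With TMM factors the log2 ratio of 80F was -0.046, so its direction depends on the scaling. With replicate 1 the ratios were 2.13 for 38C_b, 3.32 for the chromosome 4 cluster and 7.36 for 80F.

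The uni-strand clusters are transcribed from 1 promoter side and differ in where they act, flamenco being known from the somatic follicle cells. Flamenco on X from 21505001 to 21685000 had 1008 run-on and 198 total RNA reads, or 413.4 and 34.8 RPM, a ratio of 11.9 (10.2 to 13.9), with 27 of 46 members run-on-high. The cluster at 20A on X from 21392001 to 21432000 had 2870 and 1034 reads, a ratio of 6.47 (6.03 to 6.96), with 17 of 22. With replicate 1 the ratios were 3.71 and 4.33, so both clusters stayed above 1. Poly(A) RNA of shWhite was 5.74 RPM at flamenco and 58.4 RPM at 20A. The run-on-high shares were 58.7% at flamenco and 77.3% at 20A, against 32.9% of all members. No piRNA cluster held an RNA-high bin, against 4.44% of all members. The clusters held 10 to 104 members each, so this absence rests on few bins in most of them.

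Other loci were read beside the clusters, again with positions from background knowledge. The gene white, the target of the control hairpin, lies on X from 2684001 to 2691000 and had 1781 run-on reads against 84 total RNA reads, or 730.3 and 14.8 RPM, a ratio of 49.5 (39.7 to 62.3), with all 5 members run-on-high. With replicate 1 the ratio was 9.43. Total RNA of shCuff ovaries, which lack this hairpin, had 101.2 RPM in replicate 2 and 301.0 RPM in replicate 1, where shWhite had 14.8 and 77.4 RPM. In the shCuff pair, with that genotype on both sides, run-on was 527.1 RPM and total RNA replicate 2 was 101.2 RPM, a ratio of 5.21, lower than in the control pair. The label of the run-on flies gives the driver transgene the marker w[+mC]. The shWhite and shCuff labels name the driver at CG6325MVD1 too and leave the marker out, so a difference in it is not shown. In the control pair genotype and assay cannot be told apart at this gene. The Antennapedia complex, a group of Hox genes on 3R from 2480001 to 2830000, had a ratio of 3.79 that fell to 0.698 without the bin from 2644001, which held 3767 run-on and 4 total RNA reads. The bithorax complex on 3R from 12480001 to 12810000 had 119 and 61 reads, a ratio of 4.55 (3.32 to 6.30) that was 4.82 with replicate 1, and 0 of 5 members run-on-high. Its summed ratio was thus of the size of those of 38C_b and the chromosome 4 cluster. The histone gene cluster on 2L from 21415001 to 21545000 had 9 and 50 reads and 1 member, which was RNA-high, against 4.44% of all members. Only 5 of its 130 bins held run-on reads and 4 held total RNA reads, so these counts hardly read the cluster.

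The knockdown pair, shCuff run-on against shCuff total RNA replicate 2, shares no library with the control pair and repeats the contrast in another genotype. There 51155 bins passed the same filter, 42.6% of them run-on-high and 8.38% RNA-high. Of 13176 control run-on-high bins that passed it, 9953 (75.5%) were run-on-high again, and 67 were RNA-high. Of 2007 RNA-high bins, 1071 (53.4%) were RNA-high again, and 36 were run-on-high. The shared bins were 64.7% of the control and 45.7% of the knockdown list of run-on-high bins, and 51.6% and 24.98% of the RNA-high lists. Over 39659 bins in both pairs, the log2 ratios correlated at a Pearson r of 0.728 and a Spearman rho of 0.712, as a description across bins of 4 libraries.

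Poly(A) RNA was set against total RNA replicate 1, both from shWhite ovaries and neither used to call bins run-on-high or RNA-high. Of 19716 bins with a mean RPKM of at least 1 over this pair, 1.64% were lower in poly(A) RNA by 4-fold or more and 0.213% higher by as much. Of the run-on-high bins that passed this filter, 125 of 2377 (5.26%) were at least 4-fold lower, and of the RNA-high bins 24 of 1713 (1.40%). The median log2 difference was -0.26 in run-on-high and -0.068 in RNA-high bins. Only 2377 of 15386 run-on-high bins passed it.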

How the data were processed

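Run-on, total and poly(A) RNA of ovaries were read from the authors' deposited tables of 1-kb bins, which hold a read count (an estimated count, not always whole, in the run-on set, and whole in the other) and an RPKM for each bin. Reads were trimmed with cutadapt and aligned with Bowtie 0.12.7 to dm3, per the submitters' processing notes. The mismatches allowed, the placing of repeated reads and the counter are not stated in the labels, and the counts carry no strand. Estimated counts were rounded and divided by library totals to RPM. The deposited RPKM was used for the filter only, a mean of at least 1. A bin was called at a 4-fold difference with a pseudocount of 1 RPM. Intervals are 95% exact (Clopper-Pearson) and cover counting error only, and a count of 0 allows 3 reads. With 1 library a side there was no test and no p-value. The calling step was tested on simulated counts that varied by counting error only. Planted changes lay in well-covered bins, so this check does not reach calls in weakly covered bins.

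Bins were named by rule: the 5 highest of each class on the major arms and the 5 on other sequences, the 10 longest run-on-high and 5 longest RNA-high stretches, and a list of loci. The members and lists were chosen with earlier results of these data known. Alternatives were TMM factors (edgeR 4.0.16, used for scaling only), median ratios, totals without the most abundant bins, other filters, pseudocounts and folds, and shWhite total RNA replicate 1, from a library set that may have been aligned with other settings. Python 3.11.15, numpy 2.4.6, pandas 2.3.3, scipy 1.17.1 and R 4.3.3 were used. Chromatin libraries were not used here.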

Additional observations from a re-analysis of the deposited data

How the results depend on the processing

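With 1 library a side no library could be left out. No paired analysis was possible because each group held 1 library and no test was run. The number of run-on-high bins, 15386 as reported, was 8521 with TMM factors, 7641 with median ratios, 6441 with a mean RPKM of at least 5, 24175 and 2607 with pseudocounts of 0.1 and 5 RPM, and 28299 and 4968 at 2-fold and 8-fold. The number of RNA-high bins, 2075 as reported, was 5724 with TMM factors, 6190 with median ratios, 952 with a pseudocount of 5 RPM, and 5776 and 549 at 2-fold and 8-fold. Bins with 0 total RNA reads were 31042 without a filter, 1223 with a mean RPKM of at least 5 and 18712 with up to 3 reads, and those with 0 run-on reads were 5277, 59 and 1427.

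The log2 ratios of summed RPM, run-on over total RNA, were -0.036 for the major arms, 0.33 for the heterochromatic scaffolds, 0.29 for unplaced sequence and 2.60 for the mitochondrial genome. In that order they were -1.14, -0.78, -0.81 and 1.497 with TMM factors, and -1.26, -0.90, -0.93 and 1.38 with median ratios. With totals that leave out mitochondrial and the most abundant bins they were 0.0034, 0.36, 0.33 and 2.64. With shWhite total RNA replicate 1 they were 0.068, 1.99, -1.72 and -0.54. Without the most abundant bin of each library they were -0.042, 0.78, 3.58 and 4.01. Over members without the 10 most abundant bins, an alternative chosen after seeing the data, they were -0.0093, 1.21, 4.53 and 6.43. TMM factors and median ratios shift all ratios by -1.11 and -1.22, and so turned X (-0.99 and -1.10), 2R (-1.09 and -1.21), 2RHet (-0.40 and -0.51), 3RHet (-0.11 and -0.22), U (-1.002 and -1.12), XHet (-1.04 and -1.16, from 0.066) and 80F (-0.046 and -0.16). Replicate 1 turned X (-0.056), 2L (0.061), 3L (0.092), 3R (0.037), chromosome 4 (1.09), 2LHet (0.75), 3LHet (1.53), U (-1.88) and the bins M from 5001 (-1.30), 2RHet from 471001 (1.64), 2LHet from 168001 (0.70) and 2RHet from 2902001 (1.55), the bins here without a pseudocount. The value of 3R was 0.014 with totals without the most abundant bins. Apart from the shift by the scaling, the cause was not tested. At these depths 1 read was 0.410 RPM in run-on, so weakly covered bins rest on few reads.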
